A study of Mus musculus with 45 samples.

Results

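The genes described here are 9 genes of fatty acid oxidation in peroxisomes, namely Slc27a2, Ehhadh, Hsd17b4, Acaa1a, Acaa1b, Acot4, Acot8, Crot and Pex11a. They were taken by symbol from a table of 24918 gene entries, each symbol had 1 entry, and all 9 were among the 12961 entries that passed the filter on low counts. RNA-seq had been done on the colonic epithelium of 15 male C57BL/6 mice, in 3 groups of 5, and the diets started when the mice were 6 weeks old. Control mice ate a low-fat diet (10% fat) for 20 weeks and obese mice a high-fat diet (60% fat) for 20 weeks. Formerly obese mice had 15 weeks of high-fat feeding and 5 weeks of low-fat feeding after it, so that their last diet was that of the control mice. The epithelium was freed from the whole colon with EDTA, and each library measured the mixed RNA of all cells recovered from 1 mouse. Fewer cells of a type and less RNA per cell therefore cannot be told apart. A list of regions with differing DNA methylation between obese and control mice, from whole-genome bisulfite sequencing, was also used.

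Peroxisomes shorten fatty acids that are too long, branched or dicarboxylic for mitochondria. A fatty acid is first joined to coenzyme A, then oxidised by an acyl-CoA oxidase that yields hydrogen peroxide, hydrated and dehydrogenated by a bifunctional enzyme, and cut by a thiolase. The shortened acyl-CoA leaves as a free acid after a thioesterase or as a carnitine ester, and in rodent liver many genes of the pathway are known targets of the nuclear receptor PPAR alpha.

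Libraries held 15230391 to 22762095 counts, the labels named no sequencing batch, and no pair of libraries of 1 group was alike within sampling noise. The tissue label fitted its markers. The 8 epithelial markers (such as Epcam, a cell adhesion gene, at group means of 2069 to 2124 CPM, the counts scaled to library totals after TMM) summed to 13682 to 16197 CPM per library, whereas 6 smooth muscle markers summed to at most 2.70 CPM and of 5 adipocyte genes Lep and Plin1 were at 0 in every library and Adipoq and Fabp4 had group means of at most 0.0878 CPM. Cidec, a lipid droplet gene and the only tested one of the 5, rose in formerly obese mice, with means of 3.89 CPM in control, 5.57 CPM in obese and 7.44 CPM in formerly obese mice (log2 fold change 0.93 ± 0.27 against control, adjusted p = 0.0848). Immune cell markers summed to 21.9 to 54.0 CPM per library and fibroblast markers to 2.28 to 30.1 CPM. Compared with control mice, all 4 tested fibroblast genes had higher values in either group. Their median log2 fold change was 0.66 for obese and 1.09 for formerly obese mice. Medians of the 5 tested immune genes were 0.33 and 0.45, with 5 and 4 genes above 0. In these comparisons edgeR and DESeq2 called 0 genes of the 2 lists. Some markers of other cell types and segments also differed between groups, which does not tell cell numbers from RNA per cell. The paper found cell-type markers without significant change in obese mice. Compared with control mice, edgeR called 1 of 7 goblet cell markers in obese mice (Spink4, higher). It called 0 of 6 enteroendocrine and 0 of 5 stem cell markers there, and 0 of these 3 lists in formerly obese mice. DESeq2 called Spink4 higher in both groups. Of 10 tested small intestine markers, 3 rose in obese and 7 in formerly obese mice compared with control mice, with 9 and 10 values above 0. The sums of this list ran from 1105 to 1630 CPM in control, 1329 to 1726 CPM in obese and 1643 to 1995 CPM in formerly obese libraries. Apob, Fabp2 and Dpep1 were its most abundant genes, with control means of 407, 372 and 388 CPM, and Dpep1 was lower in obese mice (339 CPM). Lct, Apoa1, Apoa4 and Cyp3a11 of the same list had group means of at most 0.271 CPM. Among the markers of mature colonocytes, 0 of 7 tested genes were called in obese mice, where 0 had an unadjusted p under 0.05 and DESeq2 called 0, and 4 rose in formerly obese mice. Posterior Hox genes, which mark the distal gut, fell in 1 of 11 cases in obese and 7 of 11 in formerly obese mice. Both of the 2 tested hepatocyte markers fell in formerly obese compared with control mice. Alb went from 3.89 ± 3.61 CPM (SD) in control to 1.19 ± 0.52 CPM (edgeR adjusted p = 0.0621), with a wide spread among control libraries. Ttr went from 41.4 ± 2.71 to 34.4 ± 2.47 CPM (adjusted p = 0.0324). In obese mice edgeR called 0 of the 2, with Ttr at 40.1 CPM and Alb at 1.62 ± 0.53 CPM. The log2 fold change of Alb there was -1.26 ± 0.45 (edgeR adjusted p = 0.316), and DESeq2 called it lower. The part of these shifts in the values that follow was not tested.

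Comparing obese with control mice, 0 of the 9 genes were called by edgeR's quasi-likelihood test, where a call meant a fold change over 1.2 in either direction, a p-value under 0.01 and a Benjamini-Hochberg adjusted p under 0.25, and over all tested genes 1.58% were called. At an unadjusted p under 0.05 there were 2 of the 9 genes, Slc27a2 and Acaa1b, both with higher values in obese mice. Of all 12961 tested genes, 1407 reached that p. DESeq2 with the same cutoffs called 1 of the 9, Slc27a2, and 268 genes of the whole table. The fitted value was above 0 for 7 of the 9 genes, with a median log2 fold change of 0.11 and a range from -0.10 for Ehhadh to 0.67 for Acaa1b, beside a median of 0.00 over all tested genes. In none of the 9 genes did the obese and control libraries separate fully, and 2.47% of all tested genes did.

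Comparing formerly obese with control mice, which uses the same control libraries again, edgeR called 0 of the 9 genes and 3.72% of all tested genes. An unadjusted p under 0.05 was reached by 3 of the 9 genes, Slc27a2, Acot4 and Acaa1b, and by 2169 of all 12961 tested genes. DESeq2 called 2 of the 9, Slc27a2 and Acot4, and 530 genes of the whole table. Values were again above 0 for 7 of 9 genes, with a median log2 fold change of 0.09 and a range from -0.05 for Acot8 to 0.66 for Acaa1b. All 9 genes overlapped between these groups, and 3.62% of all tested genes did not. Between formerly obese and obese mice, 0 of 9 genes were called, beside 2.65% of all tested genes. An unadjusted p under 0.05 was reached by 1 of the 9 (Ehhadh) and by 1731 of all 12961 tested genes. DESeq2 called 0 of the 9 there and 366 genes of the whole table. The median was 0.00, the range ran from -0.18 for Acot8 to 0.11 for Ehhadh, and groups that did not overlap occurred in 0 of the 9 genes and 3.38% of all tested genes.

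**Figure D1:**
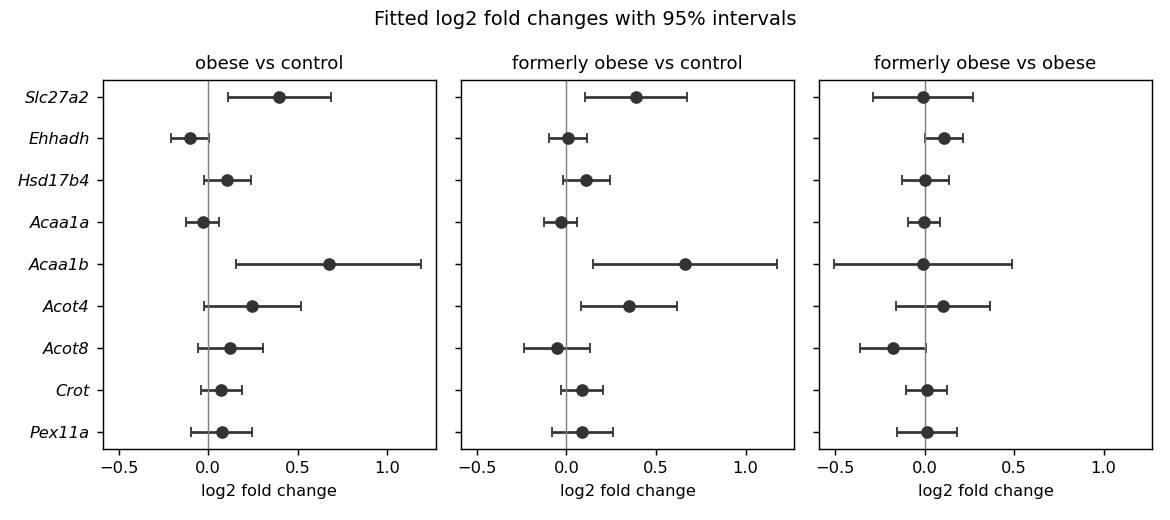
Log2 fold change (x axis) of each of the 9 genes (y axis, ordered by step of the pathway) in the 3 comparisons, with 95% intervals from the edgeR fit over 15 libraries. Slc27a2 and Acaa1b lie above 0 with their intervals in both comparisons with control mice, Acot4 in formerly obese mice only, and in formerly obese against obese mice only the interval of Ehhadh leaves 0 out.

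Levels between genes were compared per kilobase of exon (RPKM) over all 15 libraries, with the exons of all transcripts of a gene merged. The order that follows hangs on this length. For Acot8 it was 3327 bases, beside 1152 in the longest protein-coding transcript, and for Acaa1b 2705 beside 1689. For Acot4 it was 4560 beside 6203, the other way round. Acaa1a (54.4 ± 2.17 RPKM, SD, n = 15) and Hsd17b4 (52.5 ± 4.06) were the most abundant. Their ranges overlapped, and Acaa1a was the higher of the pair in 11 of 15 libraries. Ehhadh (31.2 ± 1.88) stood below both without overlap, followed by Crot (16.6 ± 1.03) and Acot8 (13.0 ± 1.42), which overlapped in range although Crot was higher in all 15 libraries. Pex11a (5.63 ± 0.45), Acaa1b (5.22 ± 1.91), Slc27a2 (4.0 ± 0.76) and Acot4 (2.31 ± 0.41) formed the low end. Pex11a and Acaa1b did not differ beyond their spread, with Pex11a higher in 9 of 15 libraries. The 3 lowest genes by this length were also the most variable. Between the lowest and the highest library Acaa1b spanned 4.44-fold, Acot4 2.10-fold and Slc27a2 2.06-fold, and the other 6 genes 1.16- to 1.40-fold.

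**Figure D2:**
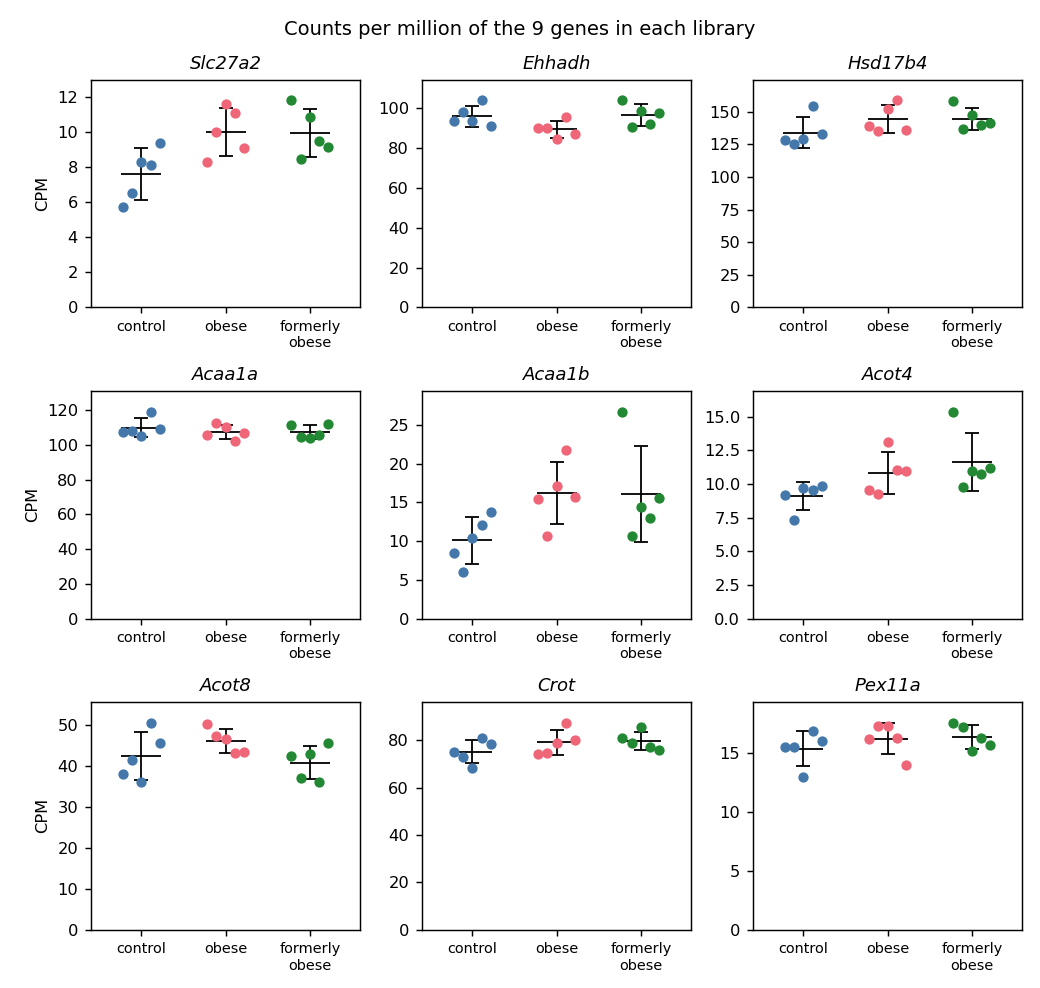
CPM (y axis, from 0) of each gene in each of the 15 libraries (points, in replicate order) by group (x axis), with the group mean and SD (bars). The groups overlap in every panel, and Acaa1b shows the widest spread, from 6.03 to 26.7 CPM.

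The first step is activation. Slc27a2 encodes a fatty acid transport protein that also acts as an acyl-CoA synthetase for long and very long chains. It lies on the plus strand of chr2:126553024-126588243 (mm10) and shares 372 runs of 50 bases with Gm26697. Control replicates 1 to 5 had 5.73, 6.55, 8.31, 8.13 and 9.39 CPM, obese replicates 8.30, 10.0, 11.6, 11.1 and 9.13 CPM, and formerly obese replicates 11.8, 8.46, 10.9, 9.48 and 9.16 CPM. Every obese and every formerly obese library was above the control mean, and in each of these groups 3 of 5 were above all control libraries. In the edgeR fit the log2 fold change was 0.40 ± 0.14 (SE) in obese mice (fold 1.32, adjusted p = 0.297), which met the cutoffs on fold and p but not that on adjusted p. In formerly obese mice it was 0.39 ± 0.14 (fold 1.31, adjusted p = 0.149), which met the cutoffs on fold and adjusted p but not that on p. Formerly obese and obese mice differed by -0.01 with a 95% interval from -0.29 to 0.27. Without control replicate 5, Slc27a2 was called in both comparisons with control mice (log2 fold change 0.48 and 0.47). Without formerly obese replicate 2 it was called in formerly obese mice (0.44). Over all 15 fits without 1 library, its values ran from 0.31 to 0.48 in obese and from 0.30 to 0.47 in formerly obese mice. The lowest were those without control replicate 1, where it was not called. The study had singled out Slc27a2 and Acaa1b on these same libraries, so their values are no independent evidence of a direction.

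The promoters of Slc27a2 and Acot4 are shown because only these 2 of the 8 promoters found in the RefSeq table (GRCm38.p6, all members but Hsd17b4) held a PPAR hexamer, AGGTCA on either strand. The 250 bases before the start site were searched, and the hexamer is in 14.0% of all 32851 promoters of that table. Capitals mark the hexamer, which lies on the opposite strand in both genes and so reads TGACCT. Slc27a2 is given for chr2:126552774-126553023 and Acot4 for chr12:84038129-84038378, both on the plus strand.
Slc27a2: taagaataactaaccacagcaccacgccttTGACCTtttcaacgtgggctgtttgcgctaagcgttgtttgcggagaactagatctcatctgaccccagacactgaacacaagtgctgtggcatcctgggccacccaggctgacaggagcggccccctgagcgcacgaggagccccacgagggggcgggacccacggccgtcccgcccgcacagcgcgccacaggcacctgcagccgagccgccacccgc
Acot4: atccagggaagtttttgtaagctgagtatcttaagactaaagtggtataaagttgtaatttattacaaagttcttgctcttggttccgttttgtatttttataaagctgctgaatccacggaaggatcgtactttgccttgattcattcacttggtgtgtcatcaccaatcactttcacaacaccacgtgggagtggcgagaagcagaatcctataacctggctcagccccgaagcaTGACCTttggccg
A pair of hexamers with 1 base between them (DR1, the full PPAR element) was in 0 of the 8 promoters, both as AGGTCANAGGTCA (0.0335% of all promoters) and as AGGNCANAGGNCA (0.338%). A match is a string of letters and was not tested as a binding site. The windows are short, and no match here says nothing of elements farther away.

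Hydration and dehydrogenation follow. Ehhadh encodes the L-specific bifunctional enzyme and Hsd17b4 the D-specific one, which also handles branched chains and bile acid precursors. For Ehhadh, control replicates 1 to 5 had 93.7, 98.0, 93.4, 104 and 90.9 CPM, obese replicates 90.3, 90.0, 84.7, 95.9 and 87.0 CPM, and formerly obese replicates 104, 90.5, 98.8, 92.0 and 97.5 CPM. It was the only member besides Acaa1a with lower values in obese mice, with 4 of 5 obese libraries below all control libraries, and all 5 formerly obese libraries were above the obese mean. Log2 fold changes of Ehhadh were -0.10 ± 0.05 in obese mice (adjusted p = 0.48), 0.01 ± 0.05 in formerly obese mice (adjusted p = 0.953) and 0.11 ± 0.05 in formerly obese against obese mice (adjusted p = 0.351). Each of these was below the fold cutoff.

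For Hsd17b4, control libraries ran from 125 to 155 CPM, obese from 135 to 159 CPM and formerly obese from 137 to 158 CPM. All 10 libraries of the obese and formerly obese groups lay above the control mean, yet 1 control library, replicate 4 at 155 CPM, was above 8 of them. The log2 fold change was 0.11 ± 0.06 in both comparisons with control mice (adjusted p = 0.556 in obese and 0.392 in formerly obese mice) and 0.00 between formerly obese and obese mice, with a 95% interval from -0.13 to 0.13.

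Thiolysis ends the cycle. Acaa1a and Acaa1b encode the paired peroxisomal thiolases A and B, which release acetyl-CoA. The genes lie 184 kb apart on chromosome 9 of mm10, Acaa1a on the plus strand (chr9:119341294-119350295) and Acaa1b on the minus strand (chr9:119148043-119157093). Their coding sequences, both of 1272 bases, were 96.5% identical. The stretch with the most differences, coding bases 259 to 318, is shown, and its 11 differing bases are in capitals.
Acaa1a: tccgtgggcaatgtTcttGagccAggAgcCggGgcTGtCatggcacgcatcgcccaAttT
Acaa1b: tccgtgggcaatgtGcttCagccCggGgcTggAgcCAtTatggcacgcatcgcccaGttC
Of the runs of 50 bases (the read length) in the transcripts, 46.2% of those of Acaa1b and 35.1% of those of Acaa1a also occur in transcripts of other genes, 583 of them in each other, and Acaa1b shares a further 175 with Dlec1, which overlaps it on the other strand. How the counting treated such reads is not given in the sources used here, so the split of counts between the genes is uncertain.

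For Acaa1b, control replicates 1 to 5 had 8.47, 6.03, 10.4, 12.1 and 13.8 CPM, obese replicates 15.5, 10.7, 17.2, 21.8 and 15.7 CPM, and formerly obese replicates 26.7, 10.7, 14.4, 12.9 and 15.6 CPM. In obese mice 4 of 5 libraries and in formerly obese mice 3 of 5 were above all control libraries, and the second replicate of each group was its lowest. Fitted log2 fold changes were 0.67 ± 0.24 in obese mice (fold 1.59, adjusted p = 0.326) and 0.66 ± 0.24 in formerly obese mice (fold 1.58, adjusted p = 0.168). Formerly obese and obese mice differed by -0.01 with a 95% interval from -0.51 to 0.49, which is wide. Acaa1b passed all cutoffs in obese mice without obese replicate 2 (log2 fold change 0.79) and without formerly obese replicate 1 (0.67). In formerly obese mice it passed without control replicate 5 (0.80) and without formerly obese replicate 2 (0.77). Over all 15 fits without 1 library, its values ran from 0.53 to 0.81 in obese and from 0.41 to 0.80 in formerly obese mice.

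Acaa1a was level by comparison. Its libraries ran from 105 to 119 CPM in control, 102 to 113 CPM in obese and 104 to 112 CPM in formerly obese mice, and the log2 fold change was -0.03 ± 0.04 in both comparisons with control mice (adjusted p = 0.846 and 0.749). The 95% interval in obese mice ran from -0.12 to 0.06, and that in formerly obese mice from -0.12 to 0.06.

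Since both thiolases are counted in the same library, their ratio does not depend on library scaling. This measure was chosen after the values were seen. Acaa1b made up 8.39% ± 2.21 (SD, n = 5) of the summed counts of the pair in control mice. The share was 13.1% ± 3.16 in obese mice and 12.8% ± 3.86 in formerly obese mice. The mean log2 ratio of Acaa1b to Acaa1a was 0.72 higher in obese than in control mice (exact permutation test, two-sided, p = 0.0317, adjusted p = 0.0476 over 3 comparisons, smallest p possible 0.00794). It was 0.68 higher in formerly obese than in control mice (exact p = 0.0317, adjusted p = 0.0476), and all 5 libraries of either group were above the control mean. Formerly obese and obese mice differed by -0.04 (exact p = 0.881). With 1 library left out in turn, the differences from control mice ran from 0.56 to 0.88 and from 0.49 to 0.81, and the exact p ran from 0.0159 to 0.0635. It exceeded 0.05 in 6 of 10 cases in each comparison, namely without control replicates 1 or 2 or obese replicates 1, 3, 4 or 5, and without control replicates 1, 2 or 3 or formerly obese replicates 1, 3 or 5. Fewer splits exist with 1 library left out, so p then moves in larger steps and its smallest possible value is above 0.00794.

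**Figure D3:**
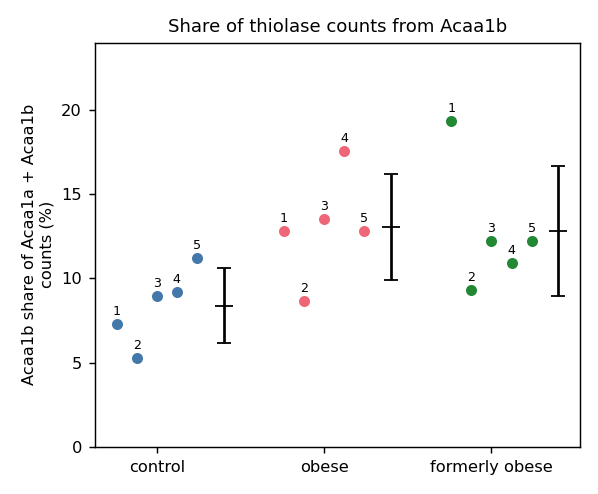
Share of the summed Acaa1a and Acaa1b counts that came from Acaa1b (y axis, percent, from 0) in each library (points, numbered by replicate) by group (x axis), with the group mean and SD beside the points. Control libraries lie between 5.30 and 11.2%, and formerly obese replicate 1 is the highest at 19.4%.

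Other members act on the products. Acot4 encodes a thioesterase for succinyl-CoA and other dicarboxylic acyl-CoA esters, Acot8 a peroxisomal thioesterase with a broad range of substrates, and Crot the carnitine octanoyltransferase that converts medium-chain acyl-CoA into carnitine esters. For Acot4, control replicates 1 to 5 had 9.16, 7.33, 9.67, 9.54 and 9.84 CPM, obese replicates 9.56, 9.29, 13.2, 11.0 and 11.0 CPM, and formerly obese replicates 15.4, 9.78, 11.0, 10.7 and 11.2 CPM. All libraries of the obese and formerly obese groups were above the control mean, and 3 of 5 obese and 4 of 5 formerly obese libraries were above all control libraries. For this gene the log2 fold change was 0.25 ± 0.13 in obese mice (adjusted p = 0.502), 0.35 ± 0.13 in formerly obese mice (fold 1.27, adjusted p = 0.163) and 0.10 between formerly obese and obese mice (95% interval from -0.16 to 0.37). Acot4 was called in formerly obese mice without formerly obese replicate 2 (log2 fold change 0.40). Over all 15 fits without 1 library, its values ran from 0.16 to 0.30 in obese and from 0.23 to 0.40 in formerly obese mice. Of the runs of 50 bases in its transcript, 14.4% also occur in transcripts of other genes, 689 of them in 4732463B04Rik and 156 in Acot6, a neighbouring thioesterase gene.

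For Acot8, control replicates 1 to 5 had 38.1, 41.7, 36.1, 50.7 and 45.7 CPM, obese replicates 50.3, 47.5, 46.6, 43.3 and 43.5 CPM, and formerly obese replicates 42.5, 37.2, 42.9, 36.2 and 45.8 CPM. Control libraries covered nearly the whole range, and 4 of 5 formerly obese libraries were below all obese libraries. Acot8 had log2 fold changes of 0.12 ± 0.09 in obese mice (adjusted p = 0.648), -0.05 ± 0.09 in formerly obese mice (adjusted p = 0.807) and -0.18 ± 0.09 in formerly obese against obese mice (adjusted p = 0.4). Acot8 overlaps Snx21 on the opposite strand, as Pex11a does Wdr93, Crot Gm15610 and Acot4 Gm40474, and Hsd17b4 overlaps Cd63-ps on its own strand and Gm33376 on the opposite one. Reads of such partners may be counted together.

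Crot ran from 68.3 to 81.0 CPM in control, 74.2 to 87.4 CPM in obese and 75.9 to 85.4 CPM in formerly obese mice. All 5 formerly obese libraries and 3 of 5 obese libraries were above the control mean. The log2 fold change was 0.07 ± 0.06 and 0.09 ± 0.06 in obese and formerly obese mice (adjusted p = 0.673 and 0.461), with 95% intervals from -0.04 to 0.19 and from -0.03 to 0.20, and it was 0.01 between formerly obese and obese mice.

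The last member acts on the organelle. Pex11a encodes a membrane protein that elongates peroxisomes before they divide. It ran from 13.0 to 16.9 CPM in control, 14.0 to 17.3 CPM in obese and 15.1 to 17.5 CPM in formerly obese mice, and 4 of 5 libraries of the obese and of the formerly obese group were above the control mean. The log2 fold change was 0.08 ± 0.08 in obese mice (adjusted p = 0.787), 0.09 ± 0.08 in formerly obese mice (adjusted p = 0.614) and 0.01 ± 0.08 between them.

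Other genes of the pathway were described by lists, whose counts are to be read beside those over all tested genes given above. Of 25 tested genes of peroxisomal oxidation outside the 9, 0 were called in obese mice by edgeR (2 had an unadjusted p under 0.05) and 0 by DESeq2, with a median log2 fold change of 0.01. In formerly obese against obese mice edgeR called 0 of the 25, with 5 at an unadjusted p under 0.05, and DESeq2 called 1, Acox2, an oxidase for branched chains, whose edgeR log2 fold change was 0.82 ± 0.30 (adjusted p = 0.231).

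Of 18 tested peroxisome assembly genes, 0 were called by edgeR in obese, formerly obese or formerly obese against obese mice, with 1, 3 and 4 at an unadjusted p under 0.05 and medians of -0.03, -0.01 and 0.01, and DESeq2 called 0 in each. Among 15 other peroxisomal enzymes, 1 rose in obese mice, Far2, a fatty acyl-CoA reductase that makes fatty alcohols, from a mean of 15.1 to 18.6 CPM (log2 fold change 0.30 ± 0.09, adjusted p = 0.225), and 0 were called in either comparison of formerly obese mice, where 4 each had an unadjusted p under 0.05 and DESeq2 called 0. In obese mice DESeq2 called Far2 higher and also called 1 gene lower, Hao2, a hydroxyacid oxidase named here after its values were seen, which edgeR did not call (log2 fold change -0.28 ± 0.09, adjusted p = 0.263). The 15 tested genes of mitochondrial long-chain oxidation stayed closest together, with 0 calls by edgeR and by DESeq2, 0 genes at an unadjusted p under 0.05 in each comparison and log2 fold changes between -0.11 and 0.09. Cpt2, the inner membrane carnitine palmitoyltransferase, was at 0.08 in obese mice (adjusted p = 0.644).

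Of 15 tested PPAR receptors and other PPAR targets, 1 was called in obese mice. This was Creb3l3, a transcription factor of lipid metabolism, which rose from a mean of 4.02 to 12.3 CPM (log2 fold change 1.61 ± 0.34, adjusted p = 0.0723). The list's median was 0.06 in obese and 0.10 in formerly obese mice. In formerly obese against obese mice Pparg, a receptor gene, was at 0.20 (adjusted p = 0.0812, below the fold cutoff), and 0 of the 15 were called in either comparison of formerly obese mice, with 3 and 4 at an unadjusted p under 0.05 and 0 called by DESeq2. Among 7 tested fatty acid transport proteins and long-chain acyl-CoA synthetases other than Slc27a2, 1 rose in formerly obese mice, Slc27a4, another fatty acid transport protein, with means of 145 and 181 CPM (log2 fold change 0.32 ± 0.09, adjusted p = 0.0707). In obese mice 0 of the 7 were called by edgeR or DESeq2 and 1 had an unadjusted p under 0.05, Acsl4, a synthetase for arachidonate, at -0.29 (adjusted p = 0.386).

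**Figure D4:**
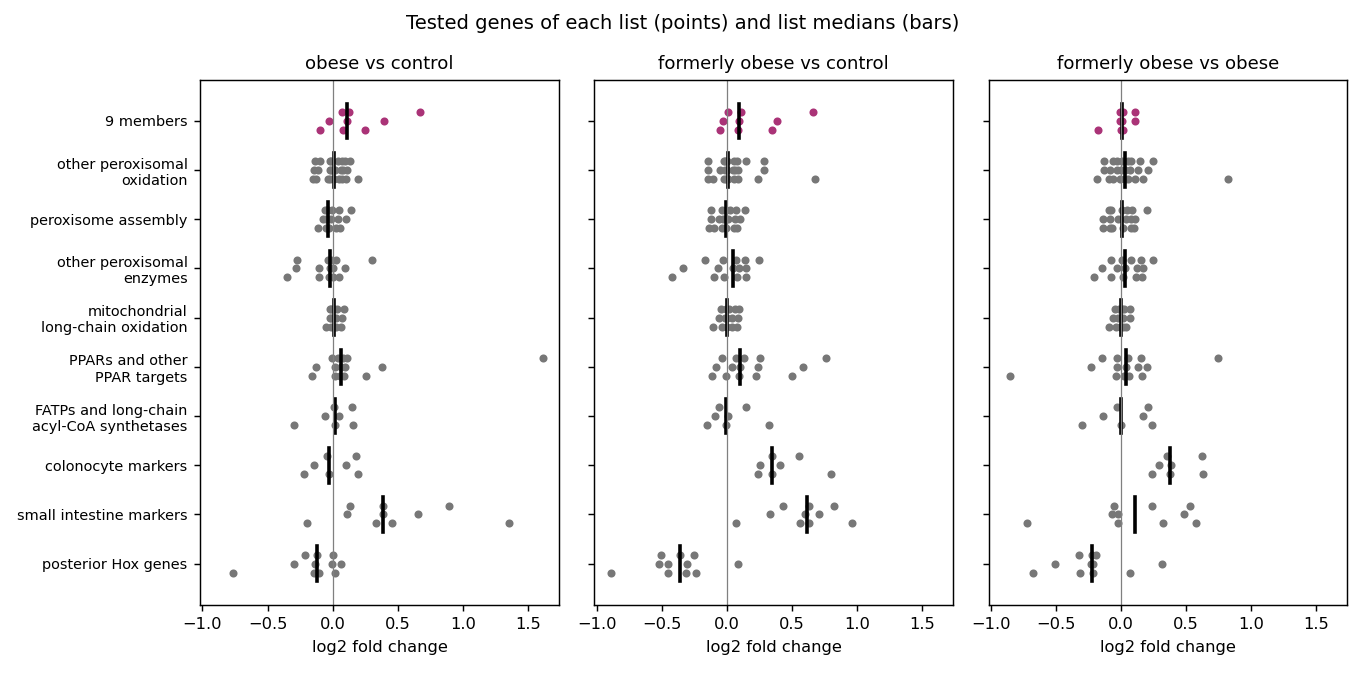
Log2 fold change (x axis) of each tested gene (points) of the 9 members, 6 pathway lists and 3 marker lists (y axis) in the 3 comparisons, with list medians (bars). The median of the 9 members lies at 0.11, 0.09 and 0.00, while that of the small intestine markers lies at 0.39, 0.61 and 0.11.

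Whether the 9 genes varied together among mice of 1 group was asked with log2 CPM as deviations from the group means, over 15 libraries and 36 pairs. All 36 correlations were above 0, with a median Pearson r of 0.40, and in a permutation test that shuffled libraries within groups 2 pairs passed an adjusted p of 0.05 over the 36 pairs by Pearson r and 3 by Spearman rho. Acaa1b and Acot4 had r = 0.85 (permutation p = 0.00116, adjusted p = 0.0416) and a Spearman rho of 0.91 (permutation p = 6e-05, adjusted p = 0.00216), and r was 0.72 without the 2 libraries farthest from the median of Acaa1b. Acaa1b and Hsd17b4 had r = 0.75 (permutation p = 0.00231, adjusted p = 0.0416) and rho = 0.80 (permutation p = 0.00088, adjusted p = 0.0158), with r = 0.68 without the 2 farthest libraries. Slc27a2 and Acot4 passed by rho alone, with rho = 0.75 (permutation p = 0.00315, adjusted p = 0.0378), r = 0.67 (permutation p = 0.00816, adjusted p = 0.0702) and r = 0.80 without the 2 farthest libraries. The lowest was r = 0.04, between Acaa1a and Crot, and Acaa1a and Acaa1b had r = 0.20. All pairs share the same libraries and their depth.

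**Figure D5:**
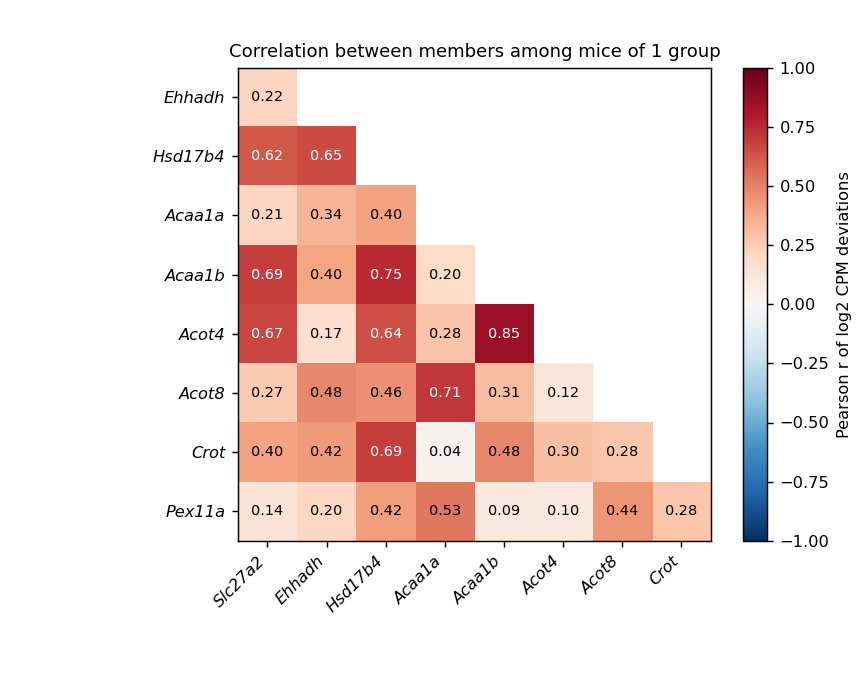
Pearson r (colour and number) for each pair of the 9 genes (x and y axis, by step of the pathway), from log2 CPM deviations from the group means over 15 libraries. All 36 values are above 0, and Acaa1b with Acot4 is the highest at 0.85.

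The same deviations were set beside the summed markers of 3 lists, a relation chosen after the data were seen, with 27 relations in all. The sums were of CPM, so the most abundant genes weighed most. In control mice Car1 had a mean of 4103 CPM beside a mean colonocyte sum of 8482 CPM, and Hoxb13 353 CPM beside a posterior Hox sum of 678 CPM. With the colonocyte markers all 9 genes had r above 0 (median 0.57), with the small intestine markers 8 of 9 (median 0.45) and with the posterior Hox genes 2 of 9 (median -0.42). An adjusted p under 0.05 over the 27 relations was reached by 2 by Pearson r, both of Hsd17b4, and by 9 by Spearman rho, of which 4 were with the colonocyte markers, 3 with the small intestine markers and 2 with the posterior Hox genes. With the colonocyte markers it had r = 0.85 (permutation p = 0.00109, adjusted p = 0.0216), rho = 0.86 (permutation p = 8e-05) and r = 0.74 without the 2 farthest libraries, and with the small intestine markers r = 0.80 (permutation p = 0.0016, adjusted p = 0.0216), rho = 0.75 (permutation p = 0.00401) and r = 0.70. Acaa1b, Slc27a2 and Acot4 had r = 0.63, 0.68 and 0.63 with the colonocyte markers (permutation adjusted p = 0.067 each) and rho = 0.76, 0.69 and 0.72 (permutation adjusted p = 0.0306, 0.0333 and 0.0306). Whether these relations bear on the differences between groups was not tested.

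Slc27a2 had the smallest p of the 9 genes, and the tested genes most like it over 15 libraries were E130012A19Rik (Pearson r = 0.88), Adra2a (0.88), Mgll (0.87), Smcr8 (0.86) and Lig4 (0.86) by log2 CPM. By deviations from the group means they were E130012A19Rik (0.86), Pdzd4 (0.85), Mark1 (0.84), Papln (0.84) and Adra2a (0.83). These are the highest values among 12961 tested genes and a description only.

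The methylation list held 8199 differentially methylated regions (DMRs) between obese and control mice, 4123 with more and 4076 with less methylation in obese mice, and it gives no value per mouse. A DMR lay within the gene body of 1 of the 9 genes, beside 12.3% of all tested genes, and within 10 kb of the start site of 0 of 9, beside 9.58%. Within 50 kb there were 2 of 9 (34.8% of all tested genes) and within 100 kb 5 of 9 (56.0%), namely Acaa1a, Acaa1b, Ehhadh, Hsd17b4 and Pex11a. The DMR inside a member is shown because it is the only one of its kind. It lies in an intron of Ehhadh, 16.5 kb downstream of the start site, at chr16:21771261-21771286 (mm10, given on the plus strand), with more methylation in obese mice, and capitals mark its 3 CpGs.
Ehhadh: CGagctttgCGagcctgcttcctaCG
The DMR nearest to Acaa1b was 22.6 kb downstream of its start site, at chr9:119134478-119134506 in an exon of Dlec1, and had more methylation in obese mice. Slc27a2, Acot4, Acot8 and Crot had no listed DMR within 100 kb of the start site.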

How the data were processed

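The authors trimmed reads with cutadapt, mapped paired reads of 50 bases from stranded libraries to mm10 with TopHat2 (2.0.4) and deposited raw counts per gene from HTSeq. The strand mode is not given in the sources used here, so overlapping and antisense genes are uncertain. The deposited DMR positions came from Bismark and a Rao-Scott likelihood ratio test, and every region starts and ends on a CG of GRCm38. The deposited DESeq2 tables hold the authors' fold changes and p-values and were not used, nor were the amplicon methylation fractions.

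Counts were filtered with filterByExpr, scaled by TMM and tested in 1 edgeR (4.0.16, R 4.3.3) quasi-likelihood fit of 15 libraries with the group as the only term, with Benjamini-Hochberg adjustment over all 12961 tested genes and the cutoffs of the study's methods. CPM are after TMM, log2 CPM used a prior count of 2, and SE and 95% intervals come from the fit. RPKM used RefSeq exon lengths, merged over all transcripts of a gene. Correlations used 100000 permutations. Alternatives were DESeq2 (1.42.0), RLE and upper-quartile scaling, other filters, fits of the compared groups only, a replicate block, removal of the GC trend, a stricter threshold and leaving out each library. Each replicate is 1 mouse.

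On simulated data for the comparison of obese and control mice with 12961 genes, the fit recovered 45 of 67 genes changed 1.3-fold, 52 of 67 changed 1.5-fold and 60 of 66 changed 2-fold, with 27 false calls among 184, and made 1 call where nothing was changed. The changed genes were drawn at random from all tested genes, so these rates do not give the power for Acaa1b, Slc27a2 or Acot4. The members and lists were chosen with earlier results of these data known. All 9 members are named. Of each pathway list, called genes (up to 6 by p) and otherwise the 2 with the smallest p could be named, and the 5 genes most like the member with the smallest p, as no member was called. Some genes of the peroxisomal oxidation list are not reported here.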

Additional observations from a re-analysis of the deposited data

Results flagged for a closer look

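Among 27 groups of 5 libraries (9 genes in 3 groups), 3 had 1 library far from the others by Dixon's criterion, a gap of more than 0.71 of the group's range, and chance gives this in about 1 of 20 groups. Acot4 in control replicate 2 was at 7.33 CPM, with the nearest control library at 9.16 CPM. Acot4 in formerly obese replicate 1 was at 15.4 CPM, with the nearest at 11.2 CPM, and the same library had the highest Acaa1b value of all 15 (26.7 CPM). Hsd17b4 in control replicate 4 was at 155 CPM, with the nearest at 133 CPM. What sets these libraries apart was not tested.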

How the results depend on the processing

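Relative to the edgeR fit, RLE and upper-quartile scaling and a filter of at least 10 counts in every library called 0 of the 9 members in each comparison, as did a threshold on the adjusted p alone, at 0.05. In obese mice, 1 member was called by DESeq2 (Slc27a2), with only the compared groups in the fit, with the replicate block, and with the GC trend removed in the block fit (Acaa1b in these 3), and leaving out 1 library gave 0 to 1. In formerly obese mice, 2 were called by DESeq2 (Slc27a2 and Acot4), with no filter (Acaa1b and Slc27a2) and with the replicate block (Acaa1b and Acot4), 1 with the GC trend removed and 1 with this and the block (Acaa1b in both), and leaving out 1 library gave 0 to 3. Every member called under any of these settings had higher values than in control mice. In formerly obese against obese mice 0 were called under every setting run. The replicate numbers are not stated to pair mice, and the correlations of same-numbered deviations ran from -0.23 to 0.33 without a common sign, so the numbers were not taken as pairs. With the block, 252, 537 and 346 genes were called in the 3 comparisons, beside 205, 482 and 343 without it. With that threshold on the adjusted p alone, these counts were 16, 282 and 25. Leaving out 1 library gave 40 to 331 calls in obese mice, namely 130, 44 and 323 without control replicate 1, 2 or 4 and 135, 331, 40, 85 and 55 without obese replicate 1, 2, 3, 4 or 5. It gave 362 to 660 in formerly obese mice and 167 to 400 in formerly obese against obese mice, with 195 and 209 without obese replicate 1 or 2 and 167 without formerly obese replicate 5. Pairs of members that passed in the correlation test were 7 with group means kept, beside 2. DMRs within 50 kb of the start site were found for 2 members, beside 5 within 100 kb. Signs changed where the main log2 difference lay between -0.05 and 0.10. In formerly obese against obese mice, Acaa1a was at 0.00045 with DESeq2, 0.00030 with RLE scaling, 0.0060 with no filter and 0.089 with the GC trend removed, with or without the block. With the GC trend removed, Acaa1b was at 0.035 (0.028 with the block), Pex11a at -0.0062 (-0.0067), Crot at -0.015 (-0.013) and Hsd17b4 at -0.011 (-0.0090), and Hsd17b4 was at -0.0055 with upper-quartile scaling. In formerly obese against control mice, Ehhadh was at -0.0021 with upper-quartile scaling and at -0.0059 (-0.0052 with the block) with the GC trend removed, where Acaa1a was at 0.038 (0.038). The cause of these changes was not tested. Leaving out 1 library in formerly obese against obese mice gave -0.018 to 0.015 for Acaa1a, -0.27 to 0.12 for Acaa1b, -0.077 to 0.050 for Slc27a2, -0.017 to 0.19 for Acot4, -0.034 to 0.039 for Pex11a, -0.017 to 0.050 for Crot, -0.031 to 0.039 for Hsd17b4 and -0.23 to 0.090 for the log2 ratio of Acaa1b to Acaa1a. In formerly obese against control mice it gave -0.018 to 0.039 for Ehhadh, -0.11 to 0.019 for Acot8 and 0.41 to 0.80 for Acaa1b. Acaa1b, Slc27a2 and Acot4 rest on 92 to 459 counts per library, which limits their precision.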
